A study of Mus musculus with 7 samples.

Results

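The transcripts described here come from 49 mouse genes for enzymes that write or erase histone lysine methylation and for the ATP-driven remodellers that move or restructure nucleosomes. The genes were taken by symbol from the deposited table, 49 of 54309 genes in all, and every one of them was found once and passed the filter on low values. The samples are lumbar dorsal root ganglia, the sensory neuron clusters beside the spinal cord, of male C57bl/6 mice aged 6 to 8 weeks. The sciatic nerve was lesioned at hour 20 or hour 8 of Zeitgeber time (ZT, counted from lights on) and the ganglia were taken 72 h later, which gave 4 samples at ZT20 and 3 at ZT8. The ganglia were dissociated with enzymes, and neurons were enriched on an albumin gradient. Because 72 h is a whole number of days, the time of injury and the time of dissection cannot be told apart. Uninjured ganglia are not among the samples, so both groups are described after injury only.

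Several limits apply to all values below. The labels do not say whether a sample is 1 animal or a pool, so p-values measure the spread between these samples, which may be technical. Library identifiers were numbers at ZT20 and letters at ZT8, so a batch marked by them cannot be told apart from the time of day. ZT20 replicates 3 and 4 went against the male label, and replicate 2 lay between them and the rest. The Y-linked transcript Ddx3y was read at 24.2, 11.7, 0 and 0 TPM (transcript abundance scaled by length, with the same sum in every sample) at ZT20, in replicate order, and at 20.8, 17.7 and 15.3 TPM at ZT8. Xist, the transcript of the inactive X chromosome, was read at 0.00467, 1.08, 2.21 and 2.31 TPM at ZT20 and at 0, 0.00208 and 0 TPM at ZT8. ZT8 replicate 2 stood apart from the rest, with 18297 genes above 0 TPM against 22541 to 25238 in the other 6 samples. Marker lists moved with the groups too. The summed level of 9 satellite glia markers was 8528 to 10099 TPM at ZT20 and 13430 to 16308 TPM at ZT8, with 3 of them called lower at ZT20. The 16 neuron markers summed to 23712 to 29826 TPM at ZT20 and 19152 to 25641 TPM at ZT8, with 6 called higher. The 9 macrophage markers summed to 362.8 to 902 TPM against 601.5 to 2413 TPM, and 5 plasma cell markers to 266.7 to 485.2 TPM against 496.2 to 933.2 TPM, with 1 of each called lower at ZT20. No listed marker was at 0 in every sample, and the part of these markers in the differences below was not tested. In such bulk samples fewer cells of a type and less RNA per cell cannot be told apart.

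Histone lysine methylation is written by SET-domain enzymes and by DOT1L and is removed by the KDM families. Methylation of lysine 4 of histone H3 (H3K4) marks promoters and enhancers in use, H3K36 methylation covers transcribed gene bodies and active regions, and H3K27 and H3K9 methylation mark silenced chromatin. SWI/SNF, ISWI and CHD enzymes use ATP to slide, evict or space nucleosomes. In sensory neurons, chromatin regulation is studied because injury of the peripheral axon switches on a growth programme that injury of the central axon does not.

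Promoter sequence was available for 32 of the 49 genes, including 12 of the 18 called higher at ZT20 in the tests below, in 44 windows from RefSeq on GRCm38.p6. Each window held the 250 bases before a transcription start, and motifs were searched by their letters on both strands. The GC box (GGGCGG), a motif bound by SP-family factors, was in 32 of 44 windows (72.7%), against 32.7% of 32851 windows of all genes. The windows were also richer in G and C, with a median of 67.6% against 52.4%, and in CpG, with 9.04% against 2.41%. The E-box read by the clock factors CLOCK and BMAL1 (CACGTG) was in 3 windows, of Ehmt2 and Kdm4c (6.82% against 6.02%), and in 0 of the 14 windows of called genes. The D-box (TTATGTAA) and the cAMP response element (TGACGTCA) were in 0 member windows, against 0.819% and 1.55% of all windows. The AP-1 site (TGANTCA) was in 2, of Kdm3a and Kdm4a (4.55% against 6.75%), and the ETS site (CCGGAAG) in 5 (11.4% against 6.91%). A match is a description of letters and not a binding site.

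The last 100 bases before the start are shown for 5 genes. Setd2, Kdm7a and Smarca4 had the smallest adjusted p-values among the genes called higher at ZT20 that have a single window. Suz12 and Eed were added because they encode subunits of 1 complex and differed in sign, and Eed was not called. None of the 5 genes was called after the correction for transcript length given below. They lie on GRCm38.p6 at chr9:110532497-110532596 (+) for Setd2, chr6:39206774-39206873 (−) for Kdm7a, chr9:21616069-21616168 (+) for Smarca4, chr11:79993006-79993105 (+) for Suz12 and chr7:89980977-89981076 (−) for Eed, and capitals mark GC boxes on either strand.
Setd2: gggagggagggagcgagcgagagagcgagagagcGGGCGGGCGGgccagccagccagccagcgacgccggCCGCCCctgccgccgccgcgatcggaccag
Kdm7a: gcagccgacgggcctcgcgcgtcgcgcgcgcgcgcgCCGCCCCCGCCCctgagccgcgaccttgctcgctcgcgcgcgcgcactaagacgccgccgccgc
Smarca4: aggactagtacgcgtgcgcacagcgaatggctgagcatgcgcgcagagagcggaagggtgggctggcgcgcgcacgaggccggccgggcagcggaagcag
Suz12: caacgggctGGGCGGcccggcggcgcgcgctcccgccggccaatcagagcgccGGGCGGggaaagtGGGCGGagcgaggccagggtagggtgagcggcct
Eed: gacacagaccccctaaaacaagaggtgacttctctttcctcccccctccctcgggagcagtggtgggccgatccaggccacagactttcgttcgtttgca

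The Setd2, Kdm7a and Suz12 stretches each hold GC boxes, while those of Smarca4 and Eed hold none. A Smarca4 window holds one further upstream, and no Eed window holds any.

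Since TPM is scaled by transcript length, levels can be compared between genes, within limits. The difference between the groups still moved with length, as given below, and its part in the orders within each group was not tested. The mean over the 7 samples ran from 1.80 TPM for Arid2, a subunit of the PBAF form of SWI/SNF, to 261 TPM for Chd9, a CHD remodeller. Per-sample values are given in replicate order throughout. Chd9 was read at 280.3, 239.7, 279.9 and 295 TPM at ZT20 and at 239.8, 206.9 and 284.1 TPM at ZT8. It alone made up 27.0% to 39.0% of the summed level of the 49 genes, and its lowest sample was above the highest sample of every other member. Smarca2, a SWI/SNF ATPase, came next at a mean of 65.6 TPM at ZT20 and 46.3 TPM at ZT8. The order after it differed between the groups. At ZT20 the means were 45.3 TPM for Kdm2a, 43.8 for Smarca4, 42.9 for Ezh1 and 42.8 for Chd4. At ZT8 they were 31.8 TPM for Ezh1, 29.3 for Kmt2e, 28.5 for Chd2, 26.0 for Smarca4, 25.5 for Eed, 22.7 for Chd4 and 21.8 for Kdm2a. Within each group, neighbours in these orders from Kdm2a or Ezh1 on overlapped in their sample ranges. At the low end Kdm6b, Dot1l, Kmt2b, Setd1a and Arid2 lay between 1.80 and 2.13 TPM. Of the genes grouped with the methyltransferases, Ezh1, Kmt2e (28.3 TPM) and Nsd1 (22.6 TPM) were the most abundant, and the most abundant demethylases were Kdm2a and Kdm4b (24.3 TPM).

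**Figure D1:**
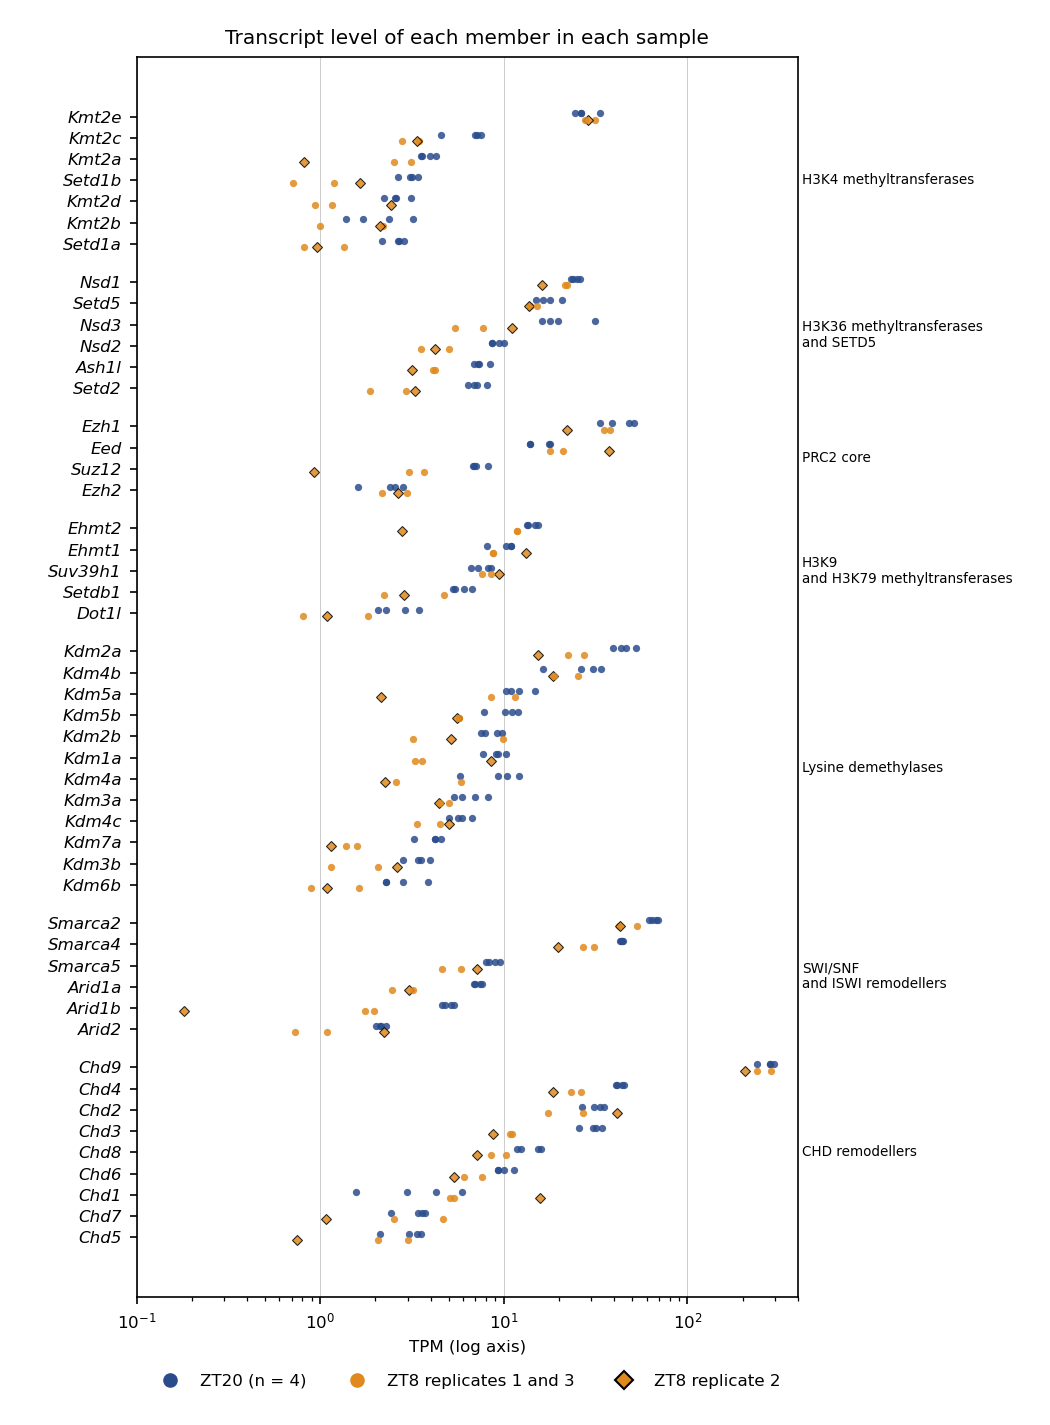
Level of each of the 49 genes in TPM (log axis) in the 4 ZT20 and 3 ZT8 samples, grouped by role, with 1 point per sample and diamonds for ZT8 replicate 2. Chd9 lies above all others, and the ZT20 points of most genes lie to the right of the ZT8 points.

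The comparison of ZT20 with ZT8 asks which of these transcripts differ between the clock times, at which both injury and dissection were done. Of the 49 genes, 18 rose at ZT20 (36.7%) and 0 fell, at an adjusted p-value under 0.05 by limma on log2(TPM + 1). Across all 14800 tested genes 12.8% were called higher and 3.61% lower, 16.4% in either direction. At an unadjusted p-value under 0.05 there were 27 members (55.1%), against 34.6% of all tested genes, and Eed was the one of them that was lower at ZT20. The difference was positive for 43 of 49 genes (87.8%), against 66.4% of all tested genes, and its median was 0.63 on the log2 scale, against 0.23 over all tested genes. For 28 members every ZT20 sample exceeded every ZT8 sample (57.1%, against 24.5% of all tested genes), and for Eed the reverse held (8.72% of all tested genes). Differences on this scale understate those of genes with low values. After median-ratio scaling, which moved the median of all tested genes from 0.23 to 0.019, 9 members were called higher and 0 lower, and 1088 of all tested genes were higher and 1254 lower, against 1899 and 534 without it. After quantile normalization 7 members were called higher and 0 lower, with 1023 and 814 of all tested genes.

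**Figure D2:**
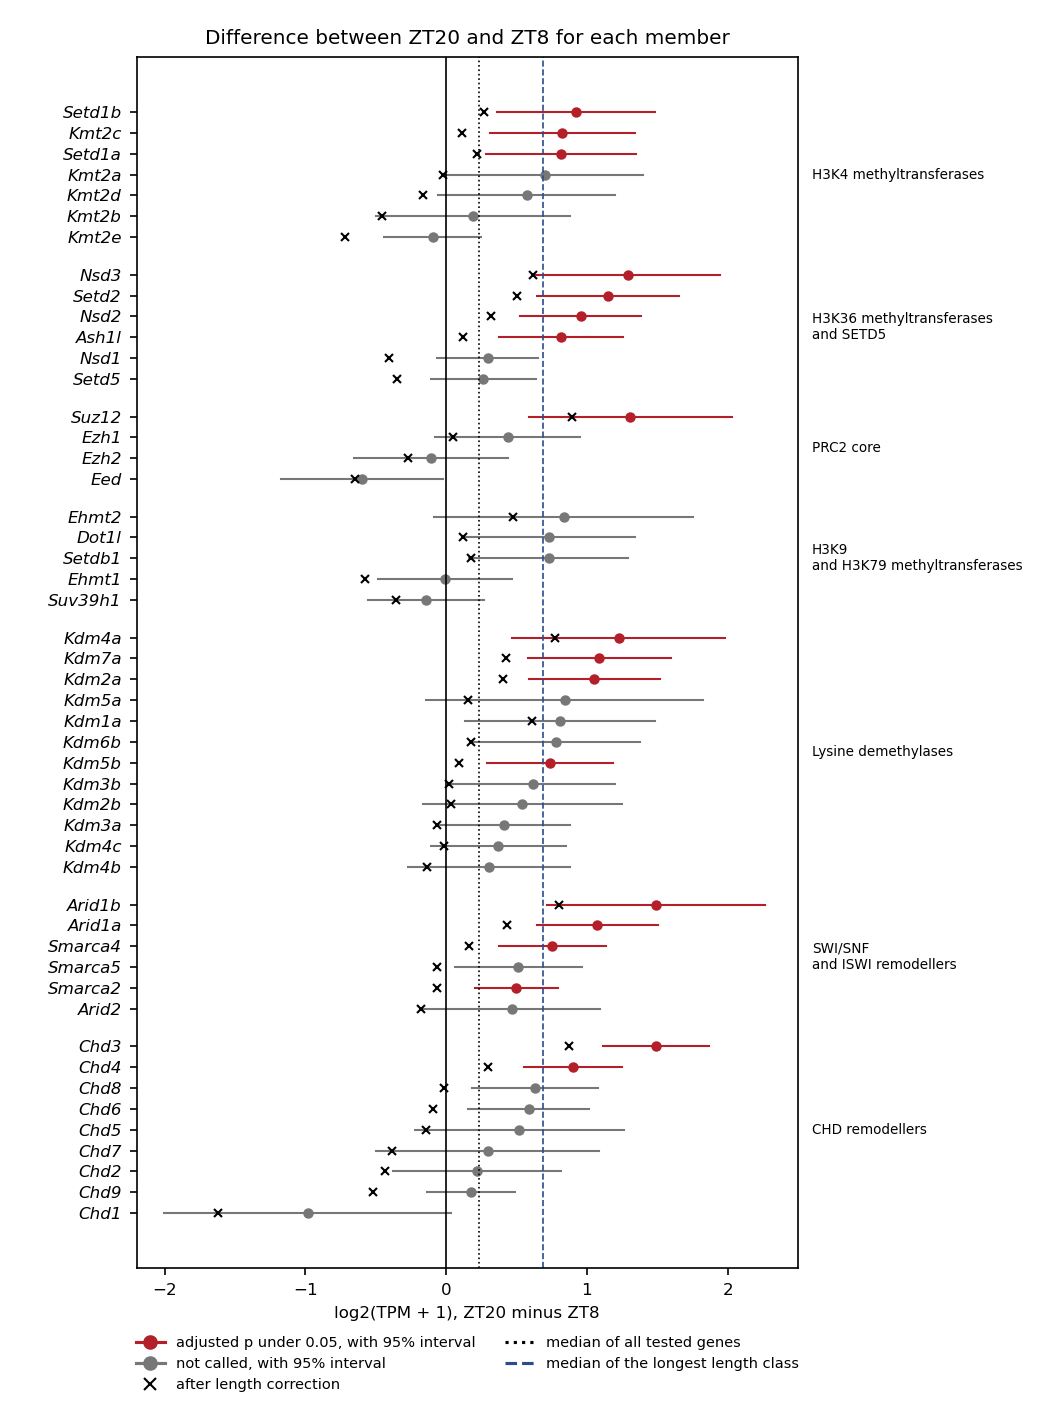
Difference ZT20 minus ZT8 in log2(TPM + 1) for each of the 49 genes with its 95% confidence interval from limma, grouped by role, with called genes in red, crosses for the difference after length correction and lines for the medians of all tested genes and of the longest length class. Chd3 and Arid1b have the largest values, 1.49 each, and none of the 6 negative values is called.

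Most of these transcripts are long, and the background of the comparison moved with length. The longest annotated transcript had a median of 7317 nucleotides over the members (2067 for Eed to 19823 for Kmt2d), against 3108 over the tested genes with a length, and 46 of 49 were longer than that median. When tested genes were put into 10 length classes of equal size, the median difference was −0.03 in the shortest class, −0.13 in the next and 0.69 in the longest. The longest class, from 6491 to 40378 nucleotides, held 30 of the 49 members. Of those 30, 13 were called higher (43.3%), against 36.5% of all genes in that class. The class as a whole was positive for 87.5% of genes, and every ZT20 sample exceeded every ZT8 sample for 55.4%. Of that class 59.1% had an unadjusted p-value under 0.05. Those shares are close to the members' own. The other 19 members gave 5 calls (26.3%), against 10.2% of other genes outside the longest class: Setd1a, Suz12, Kdm4a, Smarca2 and Smarca4. They were in length classes 8 and 9, counted from the shortest, where 19.8% and 27.1% of genes were called higher.

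**Figure D3:**
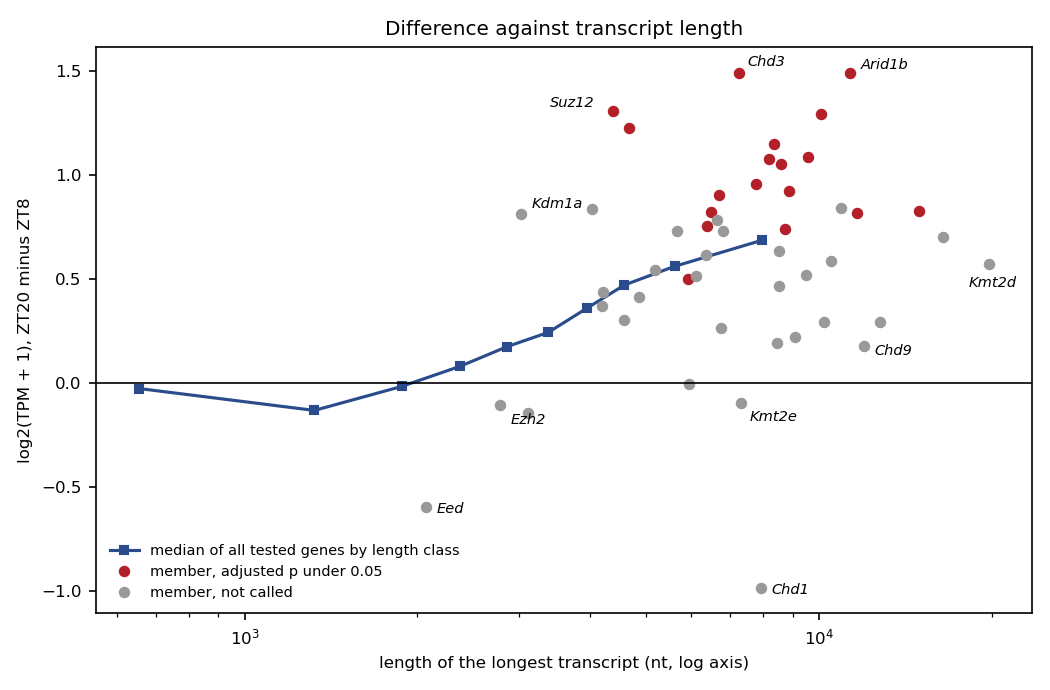
Difference ZT20 minus ZT8 in log2(TPM + 1) against the length of the longest transcript in nucleotides (log axis) for the 49 members, called members in red, with squares for the median of all tested genes in each of 10 length classes. The medians run from −0.13 to 0.69, and 42 members sit in the 3 longest classes.

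After each sample's trend with length was removed, the members' median difference was 0.033, and 26 of 49 were positive. Chd3 was then the single member called higher (0.87, adjusted p = 0.0191) and Kmt2e the single one called lower (−0.72, adjusted p = 0.0331), where 3.3% of all genes were called higher and 4.88% lower. The calls below therefore hold for the deposited values, and only that of Chd3 among the 18 was also made after this correction. The source of the length trend was not tested.

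The count of 18 also moved with single libraries. It was 9, 11, 4 and 7 without ZT20 replicates 1, 2, 3 and 4, and 15, 22 and 12 without ZT8 replicates 1, 2 and 3. The share of all tested genes called higher moved with it, to 6.45%, 9.80%, 4.20% and 4.88% without the ZT20 replicates in turn and to 12.6%, 16.0% and 8.72% without the ZT8 replicates. Without ZT20 replicates 3 and 4 together, limma called 0 members and 0 of all tested genes, with 14 members at an unadjusted p-value under 0.05. The share of all tested genes at that p-value is not given for this fit, so that count cannot be set against a background. The median difference of the members was then 0.63 and 44 of 49 were positive. Without ZT20 replicate 2 as well, a single ZT20 sample remained, too few for calls to be read. The median was then 0.56 and 42 of 49 were positive. Without ZT8 replicate 2 the median was 0.58. Of the 18 genes, Chd3, Chd4, Arid1a and Setd2 kept their call whichever single library was left out, with adjusted p-values up to 0.0169, 0.0440, 0.0499 and 0.0492. A further limma fit had the mean log2(TPM + 1) of 4 Y-linked genes as a covariate. In it Chd3 alone of the 18 was called (adjusted p = 0.0297), where 1.92% of all tested genes were called higher. Chd4, Arid1a and Setd2 were not (adjusted p = 0.0710, 0.0721 and 0.0671), with differences of 0.81, 1.08 and 1.27.

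Among the 7 H3K4 methyltransferases of the KMT2 and SETD1 families, 3 rose at ZT20 (Kmt2c, Setd1a and Setd1b), with a family median of 0.70. Of these 7 transcripts 6 are in the longest length class, where 36.5% of genes were called higher with a median of 0.69. After the length correction the family's median was −0.024, with 3 of 7 positive, none called higher and Kmt2e called lower. Kmt2c, an enhancer H3K4 monomethyltransferase, was read at 4.56, 7.14, 6.97 and 7.55 TPM at ZT20 and at 3.47, 3.38 and 2.79 TPM at ZT8. The groups did not overlap, and ZT20 replicate 1 was the lowest of its group. The means were 6.55 ± 1.35 (SD, n = 4) and 3.21 ± 0.369 TPM (SD, n = 3), a difference of 0.83 (SE 0.23, adjusted p = 0.0409). Setd1b, a catalytic subunit of the SET1 complex that trimethylates H3K4 at promoters, was read at 2.64, 3.1, 3.42 and 3.17 TPM at ZT20 and at 0.712, 1.65 and 1.18 TPM at ZT8. These were apart as well, and the difference was 0.92 (SE 0.25, adjusted p = 0.0376). Setd1a, the other catalytic subunit of that kind, was read at 2.85, 2.70, 2.17 and 2.65 TPM against 1.35, 0.961 and 0.816 TPM, a difference of 0.82 (SE 0.23, adjusted p = 0.0461). Of the Setd1a transcript, 54.5% of its 31-base words also occur in other genes, mostly Gm49388, which was listed at up to 0.304 TPM, so its value depends on how shared reads were assigned. When 1 library was left out, Setd1a and Setd1b kept the call only without ZT8 replicate 2, with adjusted p-values up to 0.13 and 0.121 otherwise. Kmt2c lost it without ZT20 replicates 2, 3 or 4 or ZT8 replicates 1 or 3 (up to 0.125).

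The remaining 4 genes of that family missed the threshold. Kmt2a, also known as MLL1, was read at 3.58, 3.56, 3.94 and 4.29 TPM at ZT20 and at 3.11, 0.818 and 2.52 TPM at ZT8. The groups were apart, ZT8 replicate 2 was far below the others, and the difference was 0.70 (95% interval −0.0033 to 1.40, adjusted p = 0.146), or 0.34 without that replicate. Kmt2d, the close relative of Kmt2c and the longest transcript of the 49, was read at 2.58, 3.13, 2.56 and 2.23 TPM against 0.934, 2.44 and 1.16 TPM, with ZT8 replicate 2 inside the ZT20 range (0.57, adjusted p = 0.176). Without that replicate the difference of Kmt2d was 0.82 (adjusted p = 0.0307). Kmt2b, or MLL2, overlapped at 1.38 to 3.19 TPM and 1.00 to 2.19 TPM (0.19, adjusted p = 0.685). Kmt2e, which carries a SET domain but is not known as an active H3K4 writer, was read at 26.5, 33.2, 24.3 and 26.2 TPM at ZT20 and at 31.3, 28.9 and 27.8 TPM at ZT8. Its difference was the nearest to 0 of the family (−0.10, 95% interval −0.44 to 0.25), where the median of its length class was 0.69, and Srpk2 on the other strand overlaps 9.31% of its exons.

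Of the 6 H3K36 methyltransferases and related genes, 4 rose (Setd2, Nsd2, Nsd3 and Ash1l), and the group's median was 0.89. All 6 transcripts are in the longest length class, where 36.5% of genes were called higher, and after the length correction the median was 0.22 and none was called. Setd2, the enzyme that trimethylates H3K36 in transcribed gene bodies, was read at 7.16, 8.12, 6.35 and 6.86 TPM at ZT20 and at 1.87, 3.30 and 2.95 TPM at ZT8. The lowest ZT20 sample was well above the highest ZT8 sample. The means were 7.12 ± 0.745 (SD, n = 4) and 2.71 ± 0.747 TPM (SD, n = 3), a ratio of 2.63 and a difference of 1.15 (SE 0.22, adjusted p = 0.0137). Nsd2, an H3K36 dimethyltransferase, was read at 8.64, 9.96, 9.37 and 8.64 TPM against 5.00, 4.22 and 3.56 TPM. Within each group its samples were close together, and the difference was 0.96 (SE 0.19, adjusted p = 0.0146). Nsd3, of the same family, was read at 19.6, 31.2, 17.8 and 16.1 TPM against 7.73, 11.2 and 5.39 TPM. It had the largest difference of the group, 1.29 (SE 0.29, adjusted p = 0.0212), with ZT20 replicate 2 high. Ash1l, a Trithorax-group H3K36 dimethyltransferase, was read at 6.91, 7.32, 7.24 and 8.44 TPM against 4.13, 3.16 and 4.21 TPM (0.81, SE 0.19, adjusted p = 0.0262).

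Nsd1, the third gene of the NSD family, was read at 25.1, 23.9, 26.0 and 23.2 TPM at ZT20 and at 21.6, 16.2 and 22.2 TPM at ZT8, apart by a small margin, with a difference of 0.29 (95% interval −0.06 to 0.65, adjusted p = 0.216, and 0.16 without ZT8 replicate 2). Setd5, a SET-domain protein placed with this group whose activity is debated, was read at 14.9 to 20.7 TPM at ZT20 and at 13.8 to 15.2 TPM at ZT8, which overlapped (0.26, adjusted p = 0.285). Leaving out 1 library at a time, Nsd2 lost its call without ZT20 replicate 3 (adjusted p = 0.0595). Nsd3 lost it without ZT20 replicates 1 or 3 or ZT8 replicate 3 (up to 0.0572) and Ash1l without any of the 4 ZT20 replicates (up to 0.0902).

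The core of PRC2, the complex that methylates H3K27, held 1 gene of 4 that rose, where 12.8% of all tested genes did, and the median was 0.17. After the length correction the median was −0.11 and limma called 0 of the 4, which had 2 at an unadjusted p-value under 0.05 before it. Suz12, the scaffold subunit, was read at 6.77, 8.18, 7.05 and 6.90 TPM at ZT20 and at 3.04, 0.924 and 3.67 TPM at ZT8. The groups were apart, ZT8 replicate 2 was the lowest, and the difference was 1.31 (SE 0.32, adjusted p = 0.0275). Eed, the subunit that reads H3K27 trimethylation, was read at 17.8, 17.6, 13.9 and 13.8 TPM at ZT20 and at 21.1, 37.5 and 17.9 TPM at ZT8. Every ZT8 sample was above every ZT20 sample, the reverse of Suz12, with ZT20 replicates 1 and 2 just under ZT8 replicate 3. The difference of Eed was −0.60 (95% interval −1.18 to −0.02, adjusted p = 0.133), which missed the threshold, and −0.29 without ZT8 replicate 2. The ratio of Eed to Suz12 was 1.97 to 2.63 at ZT20 and 6.92, 40.6 and 4.87 at ZT8. This ratio was not planned and was not tested. It joins genes whose groups lay apart in opposite directions, so its groups were bound to lie apart. Eed, the shortest transcript of the 49, is in length class 3, where the median difference of all genes was −0.017. Suz12, at 4373 nucleotides, is in length class 8, where it was 0.47.

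The catalytic subunits of PRC2 differed in level. Ezh1, the form known from non-dividing cells, was read at 38.7, 33.5, 48.0 and 51.2 TPM at ZT20 and at 35.2, 22.1 and 38.0 TPM at ZT8 (0.44, 95% interval −0.08 to 0.95, and 0.21 without ZT8 replicate 2). Ezh2, the form known from dividing cells, was read at 2.56, 1.61, 2.41 and 2.84 TPM and at 2.18, 2.64 and 2.96 TPM (−0.11, 95% interval −0.65 to 0.44). Both overlapped between the groups. Ezh1 was 8.37 to 20.8 times as abundant as Ezh2 in every sample, with the lowest ratio in ZT8 replicate 2. In the ZT20 samples the ratio averaged 18.4 ± 2.51 (SD, n = 4). In the ZT8 samples it averaged 12.4 ± 3.88 (SD, n = 3), and the groups overlapped. Suz12 lost its call without any of the 4 ZT20 replicates, with adjusted p-values up to 0.0794.

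None of the 5 H3K9 and H3K79 methyltransferases passed the threshold by limma, and 2 had an unadjusted p-value under 0.05, where 34.6% of all tested genes did and 12.8% were called higher. Their median was 0.73, and 0.12 after the length correction, with none called. Setdb1, an H3K9 methyltransferase that silences transposable elements, was read at 6.06, 5.45, 5.27 and 6.70 TPM at ZT20 and at 4.70, 2.85 and 2.22 TPM at ZT8 (0.73, adjusted p = 0.0761, and 0.96, adjusted p = 0.0351, without ZT8 replicate 1). Dot1l, the H3K79 methyltransferase, was read at 2.06, 3.46, 2.28 and 2.90 TPM and at 1.81, 1.08 and 0.803 TPM (0.73, adjusted p = 0.0946). Both were apart between the groups. Ehmt2, the H3K9 dimethyltransferase G9a, was read at 14.8, 13.6, 15.3 and 13.3 TPM at ZT20 and at 11.8, 2.81 and 11.8 TPM at ZT8. ZT8 replicate 2 was far below the rest, and the difference was 0.83 (95% interval −0.08 to 1.75, adjusted p = 0.178), or 0.25 without that replicate. Its partner Ehmt1 was at 8.10 to 10.9 TPM and 8.71 to 13.2 TPM, which overlapped (−0.01, adjusted p = 0.985). Suv39h1, which trimethylates H3K9 at pericentric heterochromatin, overlapped too, at 6.62 to 8.52 TPM and 7.65 to 9.40 TPM (−0.14, adjusted p = 0.599).

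All 12 lysine demethylases had positive differences, with a median of 0.76, and 4 rose: Kdm2a, Kdm4a, Kdm5b and Kdm7a. Of all tested genes 66.4% were positive and 12.8% called higher. Kdm2a, Kdm5b and Kdm7a are in the longest length class, where 87.5% were positive and 36.5% called higher, and Kdm4a is in class 8, where 19.8% were called higher. After the length correction the family's median was 0.12, with 9 of 12 positive and none called by limma. Kdm2a, an H3K36 demethylase that binds unmethylated CpG, was read at 43.5, 39.3, 46.0 and 52.5 TPM at ZT20 and at 22.5, 15.4 and 27.5 TPM at ZT8. The groups lay far apart, with means of 45.3 ± 5.52 (SD, n = 4) and 21.8 ± 6.08 TPM (SD, n = 3), and the difference was 1.05 (SE 0.20, adjusted p = 0.014). Kdm7a, a demethylase of H3K9 and H3K27, was read at 3.23, 4.20, 4.55 and 4.23 TPM against 1.59, 1.14 and 1.39 TPM. It had the highest ratio of means in the family, 2.95 (difference 1.09, SE 0.22, adjusted p = 0.0163). Kdm5b, an H3K4 demethylase, was read at 7.80, 11.0, 10.1 and 12.0 TPM at ZT20, while its ZT8 samples were nearly equal at 5.73, 5.53 and 5.72 TPM (0.74, SE 0.20, adjusted p = 0.0364). Kdm4a, a demethylase of H3K9 and H3K36, was read at 9.35, 5.75, 10.5 and 12.0 TPM and at 5.86, 2.26 and 2.6 TPM. It was the one called gene of the 18 whose groups overlapped, through ZT20 replicate 2 and ZT8 replicate 1 (1.23, SE 0.33, adjusted p = 0.0391).

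Kdm6b, the H3K27 demethylase JMJD3, missed the threshold although its groups were apart. It was read at 2.81, 3.88, 2.28 and 2.29 TPM at ZT20 and at 1.63, 1.10 and 0.894 TPM at ZT8 (0.78, 95% interval 0.19 to 1.38, adjusted p = 0.072). Kdm1a, the H3K4 demethylase LSD1, was read at 7.71 to 10.2 TPM at ZT20 and at 3.28, 8.54 and 3.59 TPM at ZT8, and here ZT8 replicate 2 was the high one (0.81, adjusted p = 0.0933). Without it the difference of Kdm1a was 1.18 (adjusted p = 0.00585). Kdm5a was read at 10.3 to 14.8 TPM at ZT20 and at 11.6, 2.14 and 8.53 TPM at ZT8, with that replicate low (0.84, adjusted p = 0.202, and 0.24 without it). The other 5 demethylases had differences of 0.30 to 0.61 and adjusted p-values of 0.13 to 0.420. The H3K9 demethylases Kdm3a (5.33 to 8.23 TPM at ZT20, 4.45 to 5.05 at ZT8) and Kdm3b (2.81 to 3.96 and 1.14 to 2.62) were apart between the groups. Kdm2b (7.54 to 9.77 and 3.22 to 9.88), a relative of Kdm2a, overlapped. Kdm2b passed the threshold without ZT8 replicate 1 (0.90, adjusted p = 0.0458), with 0.22 without ZT8 replicate 3, and Kdm3b passed it without ZT8 replicate 2 (0.78, adjusted p = 0.0482), with 0.40 without ZT8 replicate 1. Overlap was also seen for Kdm4b (16.3 to 33.9 and 18.6 to 25.5) and Kdm4c (5.02 to 6.71 and 3.36 to 5.06), relatives of Kdm4a. The difference of Kdm4b was 0.18 without ZT20 replicate 3 and 0.51 without ZT20 replicate 2. That of Kdm4c was 0.24 without ZT8 replicate 3 and 0.48 without ZT8 replicate 2. Of the called demethylases, Kdm2a lost its call without ZT20 replicate 3 (adjusted p = 0.0509) and Kdm7a without ZT20 replicates 3 or 4 (up to 0.0697). Kdm5b lost it in 5 of 7 such fits, without any of ZT20 replicates 2, 3 and 4 and ZT8 replicates 1 and 3 (up to 0.116). Kdm4a lost it in 5 of 7, without any of ZT20 replicates 1, 3 and 4 and ZT8 replicates 2 and 3 (up to 0.114).

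Of the 6 SWI/SNF and ISWI genes, 4 rose at ZT20 and all 6 were positive, with a median of 0.63. All 6 are in length classes 9 and 10, where 27.1% and 36.5% of genes were called higher. After the length correction their median was 0.049, with 3 of 6 positive and none called by limma. Smarca4, the ATPase BRG1, was read at 44.1, 44.3, 43.1 and 43.6 TPM at ZT20 and at 27.1, 19.7 and 31.1 TPM at ZT8. The ZT20 samples were nearly equal and the ZT8 samples scattered below them, with means of 43.8 ± 0.551 (SD, n = 4) and 26.0 ± 5.79 TPM (SD, n = 3) and a difference of 0.75 (SE 0.17, adjusted p = 0.0208). Smarca2, the alternative ATPase BRM, was read at 67.2, 69.5, 61.9 and 63.8 TPM and at 42.6, 43.0 and 53.3 TPM. Its difference of 0.50 (SE 0.13, adjusted p = 0.0342) was the smallest among the 18 called genes. Smarca2 exceeded Smarca4 in every sample, by 1.44 to 1.57 times at ZT20 and 1.57 to 2.18 times at ZT8.

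Arid1a and Arid1b encode the alternative large ARID subunits of the BAF form of SWI/SNF. Arid1a was read at 6.98, 7.40, 7.58 and 6.85 TPM at ZT20 and at 2.47, 3.04 and 3.21 TPM at ZT8. Both groups were tight, and the difference was 1.07 (SE 0.19, adjusted p = 0.0104). Arid1b was read at 5.14, 4.62, 5.36 and 4.79 TPM and at 1.95, 0.182 and 1.75 TPM. Its difference of 1.49 (SE 0.34, adjusted p = 0.023) had a wide error, with ZT8 replicate 2 the lowest value of any member in any sample. Without that replicate the difference was 1.07 (adjusted p = 0.0082). Arid2 was at 2.01 to 2.28 TPM and 0.734 to 2.23 TPM, which overlapped (0.46, adjusted p = 0.265). Without ZT8 replicate 2 it was 0.72 (adjusted p = 0.0432), and without ZT8 replicate 3 it was 0.27. Smarca5, the ISWI ATPase SNF2H, was read at 8.05, 9.59, 8.96 and 8.28 TPM and at 4.62, 7.14 and 5.86 TPM, apart but short of the threshold (0.51, 95% interval 0.06 to 0.96, adjusted p = 0.105). Without ZT8 replicate 2 the difference of Smarca5 was 0.64 (adjusted p = 0.0343), and 40.9% of its 31-base words occur in other genes. Leaving out 1 library, Smarca4 and Arid1b lost their calls without ZT20 replicates 1, 3 or 4 (adjusted p-values up to 0.0668 and 0.0734). Smarca2 lost its call without any ZT20 replicate or ZT8 replicate 1 (up to 0.0906).

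Among the 9 CHD remodellers, Chd3 and Chd4 rose, 8 of 9 were positive and the median was 0.52. All 9 transcripts are in the longest length class, whose median was 0.69 with 36.5% called higher. After the length correction the CHD median was −0.14, with 2 of 9 positive and Chd3 the one called. Chd3, one of the alternative ATPases of the NuRD deacetylase complex, was read at 34.2, 25.7, 30.5 and 31.9 TPM at ZT20 and at 11.1, 8.75 and 10.8 TPM at ZT8. The lowest ZT20 sample was above the highest ZT8 sample by more than the whole range of either group. The means were 30.6 ± 3.56 (SD, n = 4) and 10.2 ± 1.28 TPM (SD, n = 3), a ratio of 2.99, and the difference of 1.49 (SE 0.16, 95% interval 1.12 to 1.86) had the smallest adjusted p-value of the 49 genes, 0.00274. Chd4, the main NuRD ATPase in many tissues, was read at 41.5, 40.7, 44.9 and 44.2 TPM and at 23.1, 18.4 and 26.5 TPM. Its groups were apart too, with a ratio of means of 1.89 and a difference of 0.90 (SE 0.15, 95% interval 0.55 to 1.25, adjusted p = 0.00942).

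Chd3 and Chd4 did not keep the same proportion. The ratio of Chd3 to Chd4 was 0.823, 0.632, 0.679 and 0.721 at ZT20 and 0.481, 0.475 and 0.408 at ZT8. The ratios did not overlap, at 0.714 ± 0.0816 (SD, n = 4) and 0.455 ± 0.0402 (SD, n = 3). Their longest transcripts are of similar length, 7261 and 6697 nucleotides. This ratio was chosen after the values were seen and was not tested. Chd5, the neuronal ATPase of this subfamily, was read at 3.06, 2.12, 3.56 and 3.38 TPM at ZT20 and at 2.07, 0.745 and 3.0 TPM at ZT8, which overlapped (0.52, 95% interval −0.22 to 1.26, adjusted p = 0.285). It was 0.19 without ZT8 replicate 2 and 0.78 without ZT8 replicate 3.

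**Figure D4:**
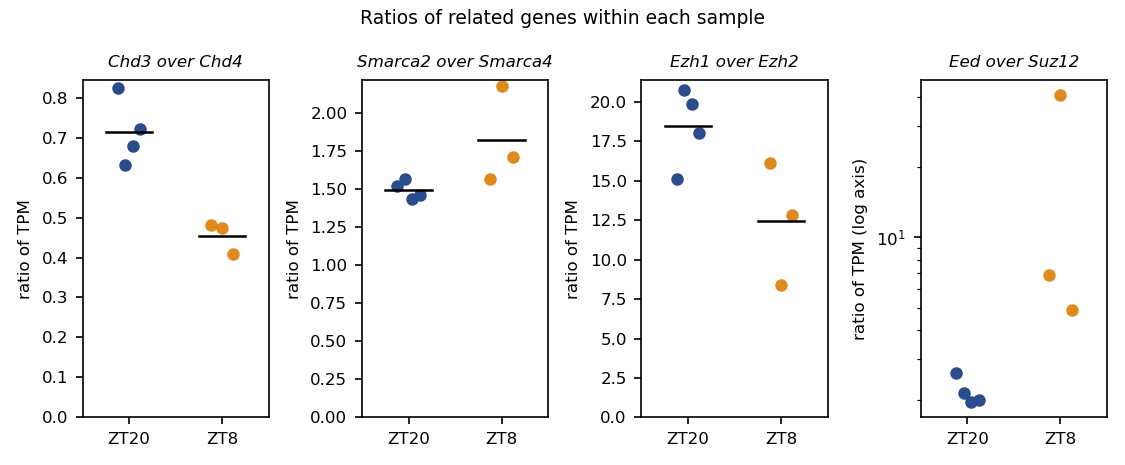
Ratio of TPM values of 4 gene pairs within each sample, 1 point per sample, with the group mean as a line in the 3 panels on linear axes (the Eed panel has a log axis and no line). Chd3 over Chd4 is 0.632 to 0.823 at ZT20 and 0.408 to 0.481 at ZT8, and Eed over Suz12 is 1.97 to 2.63 at ZT20 and 4.87 to 40.6 at ZT8. The ratios were not planned and were not tested.

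Chd1, a remodeller that binds H3K4 trimethylation, went the other way in sign. It was read at 1.57, 5.91, 4.25 and 2.98 TPM at ZT20 and at 5.12, 15.8 and 5.36 TPM at ZT8. ZT8 replicate 2 was by far the highest and ZT20 replicate 2 was within the ZT8 range, and the difference of −0.985 (95% interval −2.00 to 0.04, adjusted p = 0.156) missed the threshold. Without ZT8 replicate 2 the difference of Chd1 was −0.51. Chd6 was apart between the groups, at 9.24 to 11.4 TPM and 5.37 to 7.63 TPM (0.59, adjusted p = 0.0648). Chd8, a gene linked to autism, was apart as well, at 11.8 to 16.0 TPM and 7.12 to 10.2 TPM (0.63, adjusted p = 0.0589). Chd2 overlapped at 26.6 to 35.2 TPM and 17.5 to 41.2 TPM (0.22, adjusted p = 0.580). Chd7, the gene mutated in CHARGE syndrome, overlapped at 2.43 to 3.70 TPM and 1.08 to 4.69 TPM (0.29, adjusted p = 0.575). Chd9, the most abundant of the 49, differed by 0.18 (95% interval −0.14 to 0.49, adjusted p = 0.386). It was 0.064 without ZT8 replicate 2 and 0.29 without ZT8 replicate 3.

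The summed and the median level of the members separated the groups. The median deviation of the 49 genes from their own means was 0.22, 0.30, 0.27 and 0.34 on the log2 scale at ZT20 and −0.17, −0.44 and −0.35 at ZT8. Their summed level was 919.2, 889, 946.8 and 978.2 TPM at ZT20 and 702.1, 637.4 and 728 TPM at ZT8. On both measures every ZT20 sample was above every ZT8 sample. The deviations of the longest length class of all genes were of a like size, 0.21 to 0.39 at ZT20 and −0.43 to −0.30 at ZT8.

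**Figure D5:**
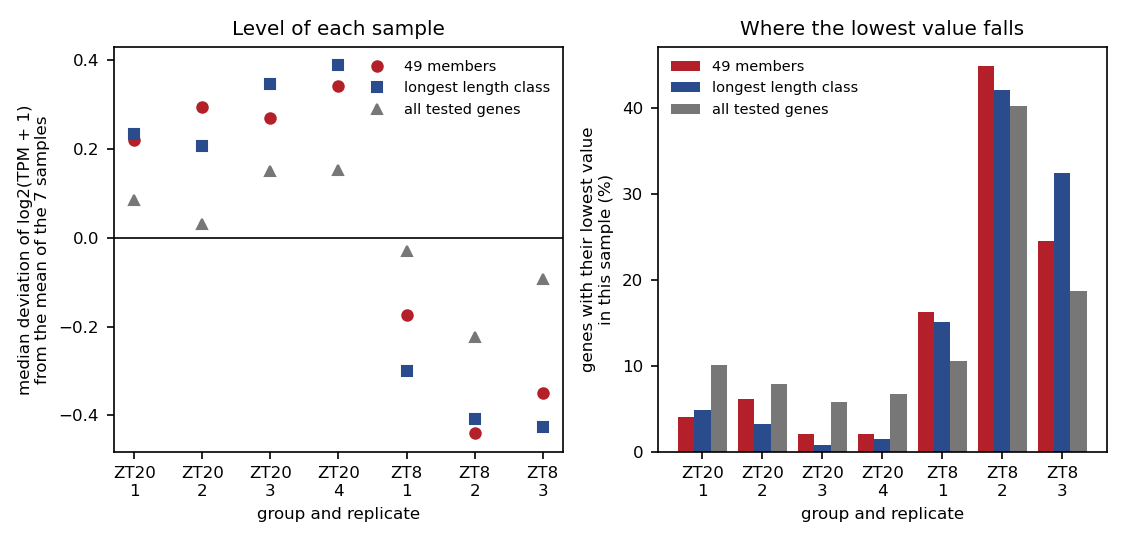
The left panel plots by sample the median deviation in log2(TPM + 1) from the mean of the 7 samples, for the 49 members, the longest length class and all tested genes, and the right panel the percent of each set with its lowest value in that sample. The members lie at 0.22 to 0.34 in ZT20 samples and at −0.44 to −0.17 in ZT8 samples, close to the longest class, and 44.9% of them are lowest in ZT8 replicate 2.

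ZT8 replicate 2 was the lowest of the 7 samples for 22 members (44.9%), near the 40.2% of all tested genes and 42.2% of the longest class. It was at the same time the highest sample for 5 members, Eed, Ehmt1, Suv39h1, Chd1 and Chd2. The coefficient of variation of the members had a median of 12.2% at ZT20 and 26.6% at ZT8, and of 15.4% at ZT8 without that replicate. It was larger at ZT8 for 41 of 49 members, as it was for 11235 of the 14800 tested genes.

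Other genes of the same machinery were described from a list of 122 subunits, partners and related enzymes, of which 118 passed the filter. Of these 15 rose (12.7%) and 3 fell (2.54%), near the 12.8% and 3.61% of all tested genes, and their median difference was 0.28, near 0.23. In NuRD, 2 of 7 rose beside Chd3 and Chd4, the scaffold subunits Mta1 and Mta3, the latter named after its values were seen. Mta3 was read at 28.2, 26.5, 27.9 and 28.9 TPM at ZT20 and at 14.6, 9.40 and 16.7 TPM at ZT8 (1.02, SE 0.20, adjusted p = 0.0137). Mta1 was read at 7.09, 5.21, 6.76 and 6.48 TPM against 2.36, 0.251 and 2.91 TPM (1.53, SE 0.39, adjusted p = 0.0321). Both transcripts are of middling length, 3287 and 2826 nucleotides, and both were still called after the length trend was removed (0.78 and 1.36, adjusted p = 0.0251 and 0.0440). They were the 2 genes of the list called higher after that correction, while 8 were called lower, among them Rbbp4 (−0.91, adjusted p = 0.0125) and Chrac1 (−1.12, adjusted p = 0.0252).

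The other calls were spread thinly over the lists. Among 6 tested PRC2 accessory genes, Jarid2 rose (1.12, adjusted p = 0.0131) and Rbbp4, a histone chaperone shared with NuRD, fell (−0.46, adjusted p = 0.0421). Of the PRC1 genes, Pcgf2 and Pcgf3 were among those that rose, and among 22 SWI/SNF accessory genes Smarcc2, Ss18l1 and Bicral rose and Actl6a, a progenitor-type subunit, fell (−0.53, adjusted p = 0.0329). Of 9 ISWI partners, Baz1a and Bptf rose and Chrac1, a small histone-fold subunit, fell. Chrac1 was read at 53.2, 56.7, 44.5 and 48.5 TPM at ZT20 and at 91.5, 146 and 91.8 TPM at ZT8 (−1.07, SE 0.19, adjusted p = 0.0103). Hcfc1, Setd7, Prdm2 and Kdm5c also rose. The differences of the methyltransferase gene Setd7 (1.38, adjusted p = 0.0134) and of Bicral (1.31, adjusted p = 0.0273) were among the largest of the list. None of 9 arginine methyltransferases or 11 INO80, SRCAP and related remodellers passed by limma, with 2 and 1 at an unadjusted p-value under 0.05.

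The sex-linked demethylases of that list differed within ZT20. Uty was read at 7.62, 5.66, 0 and 0 TPM at ZT20 and at 3.69, 15.1 and 5.65 TPM at ZT8. Kdm5d was read at 4.16, 1.15, 0.0162 and 0.00868 TPM and at 0.921, 5.63 and 1.38 TPM, so ZT20 replicates 3 and 4 were the lowest for both. Their X-linked partners were highest in replicates 3 and 4, Kdm6a at 9.23 and 12.5 TPM against 4.94 and 4.47 TPM in replicates 1 and 2 and 2.99, 7.42 and 2.93 TPM at ZT8, and Kdm5c at 16.6 and 18.1 TPM against 11.7 and 8.55 TPM. The call of Kdm5c (1.27, adjusted p = 0.0168) includes these libraries, and ZT20 replicates 1 and 2 also lay above its ZT8 samples of 4.39 to 5.21 TPM.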

How the data were processed

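RNA sequencing was done on 7 samples, 4 at ZT20 and 3 at ZT8, grouped by their titles. The authors deposited TPM values, a transcript abundance divided by transcript length and scaled to the same sum in each sample, so sequencing depth is unknown and no counting error can be given. Reads were handled with FastQC 0.11.9, Trim Galore 0.6.6 and Salmon 1.6.0 on GRCm39, per the submitters' processing notes, which also name DESeq2 1.34.0. How reads shared by paralogs, pseudogenes or overlapping genes were assigned is not given in the sources used here, and this can change a member's value. Other genes, on either strand, overlap 52.3% of the exon bases of Setd1a, 24.6% of Kdm3b, 19.3% of Chd2 and 14.55% of Suv39h1. For Kdm2b, 13.2% of its 31-base words occur in other genes.

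Values were analysed as log2(TPM + 1). The 14800 genes whose mean reached 1 TPM were fitted with limma 3.58.1 (intensity trend, R 4.3.3) over all 7 samples without covariates, and differences are ZT20 minus ZT8. Tests were two-sided with Benjamini-Hochberg adjustment over all tested genes, and a gene was called at an adjusted p-value under 0.05. On simulated data for 14800 genes with 200 changed, the fit recovered 33% of genes changed by 1 on the log2 scale and 69.5% of those changed by 1.5, and called 0 when none was changed. The simulated noise was independent between genes, with the same spread of a gene in every sample. Shifts that many genes share, such as the length trend or the low values of ZT8 replicate 2, were not simulated. The simulation therefore cannot show how such shifts affect the calls.

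Transcript lengths came from GENCODE M21, on an older build than the table, matched by identifier for 14745 genes (99.6%), so no gene coordinates are given. In the length correction, each sample's loess trend (span 0.3) of the deviation from the gene mean on log2 length was removed. The members, role groups and lists were chosen with earlier results of these data known. All members could be named. Values in every sample were given for called members and for Ezh1, Ezh2, Kdm6b, Kmt2a, Smarca2, Smarca4, Smarca5, Chd3, Chd4 and Chd5, and of the other chromatin genes for Mta1, Chrac1, Kdm6a, Kdm5d and Uty. The rule for the other chromatin genes named the 4 largest called differences each way (3 were lower) and Kdm5c, Kdm6a, Kdm5d and Uty, and those not listed here are given by their differences or ranges. One gene that this rule names is not reported here. Values of other genes were added after they were seen.

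Alternatives were a pseudocount of 0.1, no filter, a minimum of 5 TPM, median-ratio and quantile scaling, the length correction, the replicate number as a block with and without it, no trend, array weights, a Y-linked covariate, a threshold of 0.10, and leaving out libraries. Software also included pandas 2.3.3 and matplotlib 3.10.9.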

Additional observations from a re-analysis of the deposited data

How the results depend on the processing

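The members' median difference, 0.63, stayed between 0.58 and 0.75 when 1 library was left out, and the count of members called higher between 4 and 22. The count called lower was 0 in each of those fits, while over all genes 620 to 2375 were called higher, 103 to 672 lower, and 3 to 26 other chromatin genes were called. Median-ratio and quantile scaling moved the median of all genes from 0.23 to 0.019 and 0.0046. They left 9 and 7 members higher, a members' median of 0.43 and 0.36, 1088 and 1023 genes higher, and 1254 and 814 lower. The length correction left 1 member higher and 1 lower, a median of 0.033, 487 genes higher, 720 lower and 10 other chromatin genes, 2 higher and 8 lower. The replicate numbers belong to separate samples, whose same-number deviations correlated at −0.014, 0.153 and 0.083, so they share only a number, and not every sample correlated best with its own number. With the replicate block, Arid1a and Setd2 had differences of 1.095 and 1.163 and were not called by limma (adjusted p = 0.0585 and 0.0603). In that fit 4 members, 891 genes higher, 283 lower and 7 other chromatin genes were called. With the block and the length correction these were 0, 239, 326 and 2, and the median was 0.032. A pseudocount of 0.1 gave a median of 0.83. Without a filter 7 members, 978 genes higher, 200 lower and 9 other chromatin genes were called. Without the intensity trend 332 genes were lower. Array weights gave 2982 higher, 917 lower and 36 other chromatin genes. Without ZT20 replicates 3 and 4, limma called 0 members, 0 genes and 0 other chromatin genes, with 14 members at an unadjusted p-value under 0.05. The share of all genes at that p-value is not given for this fit. Without ZT20 replicates 2, 3 and 4 a single ZT20 sample remained, and the members' median was 0.56. The Y-linked covariate left 1 member, 284 genes higher, 29 lower and 1 other chromatin gene, and a threshold of 0.10 gave 3098, 981 and 30 for the last 3 counts. Causes of these shifts were not tested.

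Chd3 kept its call in 18 of 21 alternatives, the most of the called members, and Chd4 in 16 of 21. The fewest were 4 of 20 for Setd1a, 5 of 20 for Setd1b and 6 of 21 for Kmt2c and for Smarca2.

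Some members changed sign, of which Smarca2 alone was called. Under median-ratio scaling Chd9 was −0.075 and Chd2 −0.024. Under quantile scaling Kmt2b was −0.10, Setd5 −0.013, Chd7 −0.083 and Chd2 −0.00057. The length correction gave Kmt2a −0.024, Chd5 −0.14, Kmt2b −0.46, Nsd1 −0.41, Kdm4b −0.14, Smarca2 −0.066, Kdm4c −0.016, Smarca5 −0.065, Arid2 −0.18, Setd5 −0.35, Chd7 −0.38, Kmt2d −0.16, Kdm3a −0.063, Chd8 −0.013, Chd9 −0.52, Chd6 −0.092 and Chd2 −0.44. The block with the length correction gave Kmt2a −0.035, Chd5 −0.16, Kmt2b −0.30, Ezh1 −0.015, Nsd1 −0.35, Kdm4b −0.18, Smarca2 −0.022, Kdm4c −0.051, Smarca5 −0.012, Arid2 −0.17, Setd5 −0.33, Chd7 −0.39, Kmt2d −0.074, Kdm3a −0.13, Chd8 −0.032, Chd9 −0.53, Chd6 −0.028 and Chd2 −0.46. Array weights put Ehmt1 at 0.21. Without ZT20 replicates 3 and 4 Kmt2e was 0.017, and without 2, 3 and 4 Ehmt1 was 0.037, Chd7 −0.018 and Chd2 −0.015. When 1 library was left out, Kmt2b ran from −0.029 to 0.31, Ezh2 from −0.19 to 0.0082, Chd7 from −0.075 to 0.65, Chd2 from −0.080 to 0.52 and Ehmt1 from −0.10 to 0.18.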
